A study of Mus musculus with 6 samples.

Results

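The mouse tRNA genes that carry an intron are the subject here. They are the 24 of 433 annotated tRNA loci whose annotation adds an intron flag to the anticodon. This rule uses no measured value, although the set was chosen with earlier results of these data known. They comprised 10 Tyr GTA loci, 4 Leu CAA loci, 4 Ile TAT loci, 4 Arg TCT loci, 1 Ser AGA locus and 1 Met CAT locus. Every Tyr locus on the list carried the flag, whereas each of the other 5 isotypes also had unflagged loci. The RNA came from epididymal white adipose tissue (eWAT), a visceral fat pad, of males of the C57BL/6 strain (C57Bl6/J in the growth protocol) aged 22 to 24 weeks, 3 of them wild-type and 3 Maf1-/-. All mice were kept on breeder chow and fasted overnight before the tissue was taken, and the knockout was present in the whole body. Total RNA depleted of ribosomal RNA was sequenced with its strand preserved, with 1 library per mouse, named here WT1 to WT3 and KO1 to KO3. The question was how each locus differed between the genotypes in transcripts that are still precursors and in those that are mature.

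RNA polymerase III (Pol III) transcribes tRNA genes from promoter elements inside the gene, called the A box and the B box, and stops at a run of T residues just past its end. The primary transcript carries a leader and a trailer that are removed, and in a minority of genes also an intron that lies just 3′ of the anticodon. In mammals the tRNA splicing endonuclease (TSEN) cuts the intron out, and a ligase with RTCB as its catalytic subunit joins the exons. MAF1 is a repressor of Pol III, and precursor tRNAs are short-lived, so their level is commonly read as a measure of Pol III output.

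Each locus had a precursor score, made from tags that belong only to unprocessed transcripts, and a mature score. A score is a tag number scaled to library size, so that 1 read was worth between 0.763 (WT2) and 1.69 (KO2), in libraries of 7207476 to 15971900 uniquely mapped reads. The precursor scores of all 433 loci came from 1775 to 17673 reads per library, and WT1 held the fewest. Whether tags inside an intron counted as precursor tags is not given in the sources used here. Nor is it given how tags across a splice junction, or tags shared between loci, were treated. Maf1 was counted 655, 1120 and 852 times in the wild-type libraries and 150, 87 and 300 times in the knockout libraries, with no overlap of the groups, yet edgeR's quasi-likelihood test did not call it over all genes (unadjusted p = 0.000225, adjusted p = 1.00). The 10 adipocyte markers were detected in every library, and their summed level was 28088 to 30759 CPM (counts scaled to library size) in wild-type and 21114 to 26689 CPM in knockout libraries, which all lay lower. The edgeR test called 0 of the 10, and not every marker followed the sum. Retn had 22435 counts in KO1, beside 17923, 13132 and 7866 in WT1, WT2 and WT3. Markers of epididymis and testis summed to 17.5 to 7549 CPM in wild-type and 818 to 9851 CPM in knockout libraries, and WT1 and KO1 were lowest. The part of either marker list in the results below was not tested. In whole tissue, fewer cells of a type and less RNA per cell cannot be told apart.

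The sequences of all 24 loci were read from the mm9 genome, and the intron was placed from the anticodon and the pairing of the anticodon stem. Printed below are 11 loci, 5′ to 3′, with the intron in capitals. They are the loci with the largest and smallest change in each family, with n-Ti14, n-Ti16 and the Met locus, because they show how nearly identical exons enclose different introns. The first 4 lines are the Ile TAT loci, at chr7:29158018-29158112, chr13:21988807-21988900, chr13:23362290-23362385 and chr17:84261284-84261376. Then follow Leu CAA (chr13:21292073-21292177 and chr13:22006707-22006812), Arg TCT (chr3:121995866-121995950 and chr13:22009031-22009116), Tyr GTA (chr13:23518374-23518461 and chr5:31190456-31190544) and Met CAT (chr10:62656988-62657080). n-Ti14, n-Ti15, n-Tr22, n-Tr23 and n-Tm18 lie on the minus strand and the others on the plus strand.
n-Ti16: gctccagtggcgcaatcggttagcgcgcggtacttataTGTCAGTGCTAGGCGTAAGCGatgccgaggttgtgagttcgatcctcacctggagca
n-Ti14: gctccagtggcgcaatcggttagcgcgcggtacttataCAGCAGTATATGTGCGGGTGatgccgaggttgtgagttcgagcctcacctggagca
n-Ti15: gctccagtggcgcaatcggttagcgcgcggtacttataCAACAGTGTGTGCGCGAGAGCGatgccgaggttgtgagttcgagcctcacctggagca
n-Ti17: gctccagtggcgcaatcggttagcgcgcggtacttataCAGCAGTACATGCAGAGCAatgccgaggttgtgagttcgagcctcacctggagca
n-Tl10: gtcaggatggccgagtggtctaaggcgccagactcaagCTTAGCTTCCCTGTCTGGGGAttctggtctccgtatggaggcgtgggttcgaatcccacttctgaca
n-Tl11: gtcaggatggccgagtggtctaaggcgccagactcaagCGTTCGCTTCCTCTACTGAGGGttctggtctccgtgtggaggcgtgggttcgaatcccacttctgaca
n-Tr22: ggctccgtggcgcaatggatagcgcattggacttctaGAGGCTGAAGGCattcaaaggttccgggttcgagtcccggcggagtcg
n-Tr23: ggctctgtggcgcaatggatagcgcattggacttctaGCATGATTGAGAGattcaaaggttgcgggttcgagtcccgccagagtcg
n-Ty4: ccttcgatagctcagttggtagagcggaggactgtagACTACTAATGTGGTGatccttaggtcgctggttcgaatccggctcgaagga
n-Ty9: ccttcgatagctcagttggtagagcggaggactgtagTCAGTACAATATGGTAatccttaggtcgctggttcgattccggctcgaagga
n-Tm18: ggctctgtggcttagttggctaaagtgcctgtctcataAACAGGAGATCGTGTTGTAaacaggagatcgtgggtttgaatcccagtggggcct

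The introns differed at every locus, whereas the spliced sequences fell into 17 groups. n-Ti14, n-Ti15 and n-Ti17 had the same spliced sequence, as did n-Ty3, n-Ty4, n-Ty5, n-Ty7 and n-Ty8, and also n-Ty2 and n-Ty10. None of the 409 unflagged loci had the spliced sequence of a member. Introns in the 4 families were 12 to 23 bases long, with 12 to 14 bases in Arg, 13 to 20 in Tyr, 19 to 22 in Ile and 21 to 23 in Leu. The Ser locus n-Ts11 had the longest intron placed, 51 bases, and 4 pairs in its anticodon stem in place of the 5 found in the other 23. In n-Tm18, with a placed intron of 19 bases, a stretch of 16 letters occurs at positions 37 and 56 of the gene counted from its 5′ end, the first copy reaching into the intron and the second starting at its end.

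The promoter letters also set these 2 loci apart from the other members. The B box was searched as GTTCGANNC on both strands and found on the gene's strand in 22 of 24 members (91.7%), beside 56.5% of the 409 unflagged loci and 58.4% of all 433. A run of at least 4 T within 40 bases past the end followed 22 members (91.7%) and 85.8% of unflagged loci, at a median of 6 and 8 bases. n-Ts11 and n-Tm18 were the members without either match. A match describes letters and does not show that a site is used.

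In precursor score, many intron-containing loci ranked high among all loci. The members' median score over the 6 libraries was 28.3, beside 2.57 for the unflagged loci. Of the 24, 12 were among the 43 loci with the highest mean score. Scores above 0 were found at 91.7% to 100% of members per library, and at 38.1% to 71.4% of unflagged loci. Since it is not known whether intron tags count, these scores do not rank transcript abundance between flagged and unflagged loci. Together the 24 members held 18.1%, 18.2% and 25.1% of the precursor score of all loci in WT1, WT2 and WT3. In KO1, KO2 and KO3 they held 18.2%, 23.0% and 24.1%, so that the genotypes overlapped in this share. The 4 Leu CAA loci, which decode UUG, gave the largest part in WT1, WT2, WT3, KO1 and KO3, with 43.5% to 47.3% of the members' score, but 28.3% in KO2, where Tyr GTA gave 30.8%. Levels within a family spread widely, from 3.92-fold between the highest and the lowest Leu locus to 36.4-fold in Tyr.

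**Figure D1:**
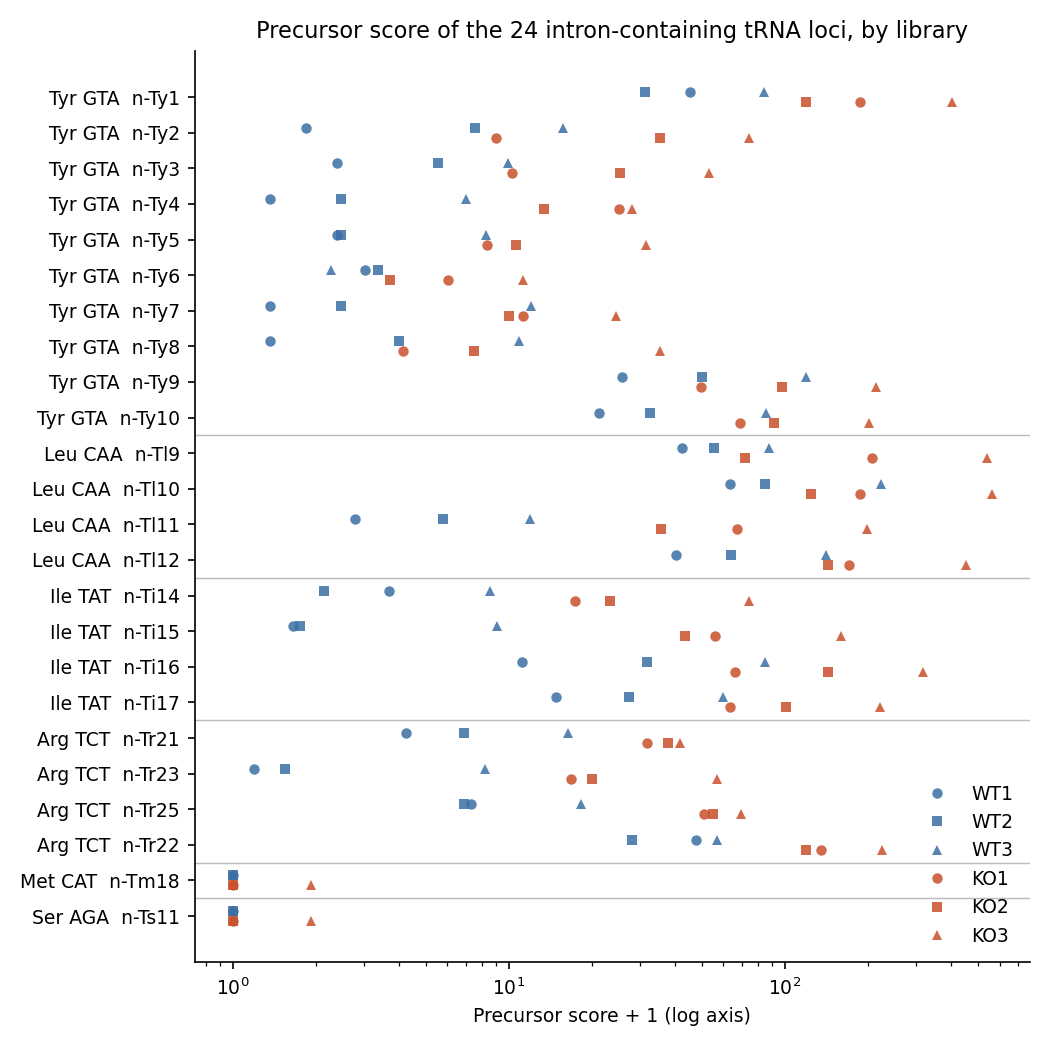
Precursor score of each of the 24 loci in each library, as score plus 1 on a log axis, with loci in rows ordered by family and the 3 wild-type libraries in blue and the 3 Maf1-/- libraries in red. At 14 loci all red symbols lie to the right of all blue ones, and n-Tm18 and n-Ts11 are at a score of 0 in all libraries but KO3.

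The summed precursor score of these loci was higher in each Maf1-/- library than in any wild-type library. Summed over the 24 loci, the wild-type scores were 325 (WT1), 436 (WT2) and 1060 (WT3), and the knockout scores were 1429 (KO1), 1313 (KO2) and 3972 (KO3). KO3 and WT3 each stood above the others of their genotype. The ratio of the group means was 3.69, and it was 2.26 without KO3 and 5.88 without WT3. The unflagged loci together had 2198 ± 864 in wild-type and 7768 ± 4209 in knockout libraries (SD, n = 3 per genotype), again without overlap. Sums over chosen loci carry no test.

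Locus by locus, limma on log2(score + 1) tested the 276 loci whose mean score reached 1, which kept 22 members. It called 8 of the 22 higher at an adjusted p under 0.05, where 24.6% of all loci tested were called, and none lower (0 of 276 at an unadjusted p under 0.05). The 8 were n-Ty1, n-Ty4, n-Tl11, n-Ti14, n-Ti15, n-Ti16, n-Tr23 and n-Tr25. The log2 fold change was above 0 in 22 of 22 members, beside 95.3% of all loci tested, or in 16 of 22 when scores were scaled by TMM factors, and its median was 2.05 beside 1.57 over all loci tested. The groups did not overlap at 14 of 22 members, beside 39.5% of all loci tested. The count of 8 rested on single libraries, since it was 1 without WT1, 2 without WT2, 3 without KO3 and 5 without KO1. With the replicate number as a block, 104 of the 276 loci and 20 of the 22 members were called. Scaling by TMM factors, which centres the change of the bulk of loci, lowered the median to 0.26 over all loci and 0.45 over the members, with 21 loci called higher and 4 lower in place of 68 and 0, and 2 members called (n-Ti15 and n-Tl11).

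**Figure D2:**
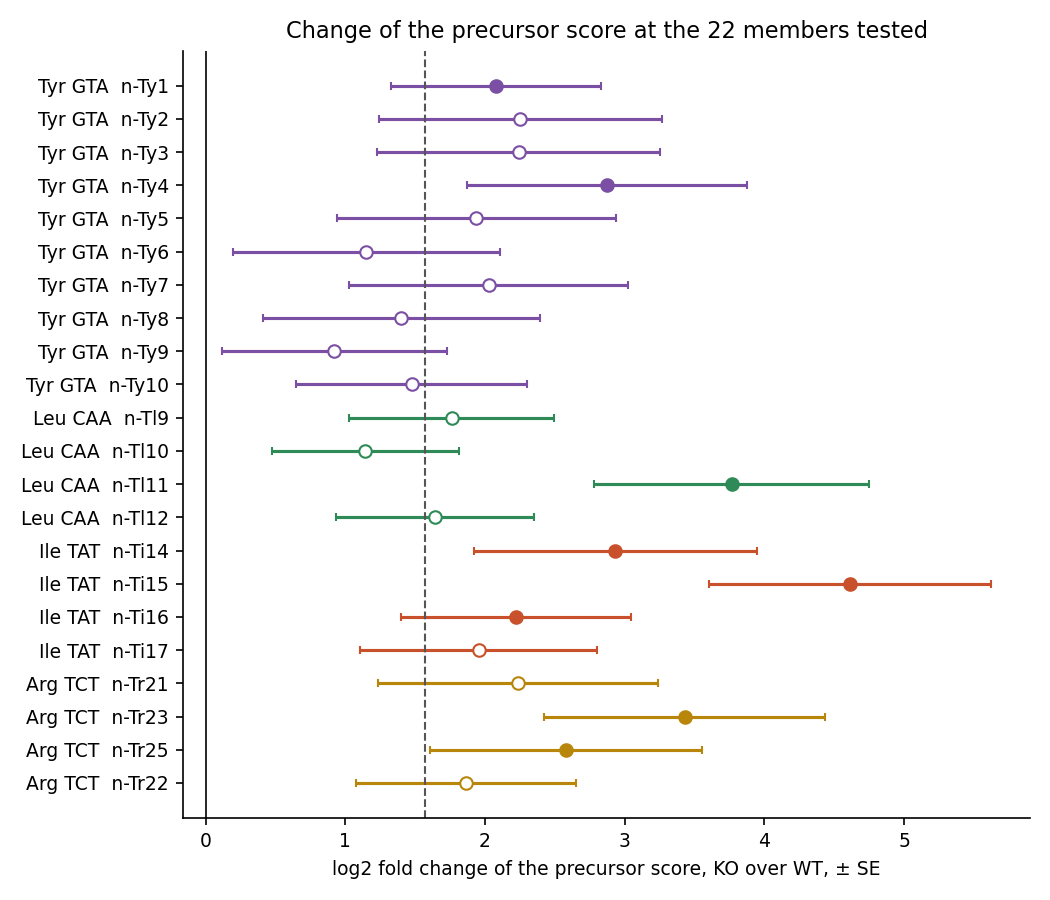
Log2 fold change of the precursor score, Maf1-/- over wild-type, with its standard error, for the 22 members tested by limma, coloured by family, where filled circles have an adjusted p under 0.05 and the dashed line marks the median of all 276 loci (1.57). All values are above 0, from 0.92 at n-Ty9 to 4.61 at n-Ti15, although 6 of them fall below 0 when scores are scaled by TMM factors.

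The members were also divided, as a description with no test, by their level in wild-type tissue. The 13 members with a wild-type mean score under 10 had a median log2 fold change of 2.25 and held 6 of the 8 calls, and the 9 members above it had a median of 1.76 and held 2. Over all loci tested, 58 of 214 were called below that level and 10 of 62 above it, with medians of 1.71 and 1.22. Since 1 is added to each score, the fold change of the lowest loci is understated on this scale, and their wild-type scores came from few reads.

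**Figure D3:**
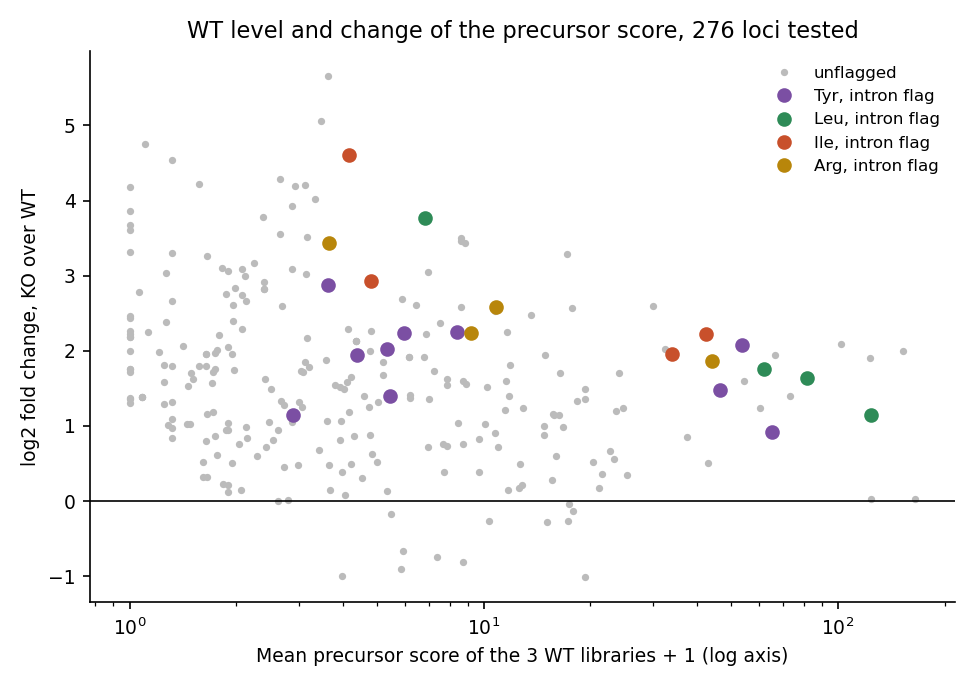
Mean wild-type precursor score plus 1 (log axis) against the log2 fold change, Maf1-/- over wild-type, for the 276 loci tested, with the 22 members in colour by family and the unflagged loci in grey. The wild-type libraries enter both axes. The members with the highest wild-type scores lie between 0.92 and 2.22, and the 6 largest changes belong to members with a wild-type mean under 10; under TMM scaling 6 members lie below 0.

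The Tyr GTA family showed a wide range of levels and moderate changes. Of its 10 loci 2 were called higher and 5 did not overlap between genotypes, beside 24.6% and 39.5% of all loci tested. The median log2 fold change was 1.98. n-Ty1, the most abundant Tyr precursor averaged over the 6 libraries, scored 44.5 (WT1), 30.2 (WT2) and 83.1 (WT3) in wild-type and 187 (KO1), 118 (KO2) and 401 (KO3) in knockout libraries; the same library order is kept for each locus below. All knockout libraries lay above all wild-type libraries, with KO3 highest, and the log2 fold change was 2.08 (SE 0.75, limma adjusted p = 0.0296; 1.60 to 2.48 without single libraries). n-Ty4 had the largest change, from 0.37, 1.48 and 6.03 in wild-type to 24.0, 12.4 and 27.04 in knockout libraries. Its groups did not overlap, its log2 fold change was 2.88 (SE 1.00, adjusted p = 0.0239), and its wild-type scores stood for 0.4, 1.9 and 6.2 reads. The WT1 and WT2 scores were the same at n-Ty7 (0.37 and 1.48), which has the same spliced sequence. They may therefore be tags divided between loci, which was not tested. n-Ty9, which had a higher wild-type mean than n-Ty1 (64.0 beside 52.6), had the smallest change, scoring 24.7, 49.2 and 118 in wild-type and 48.9, 96.7 and 213 in knockout libraries. There WT3 exceeded both KO1 and KO2, and the log2 fold change of 0.92 (SE 0.81) did not pass (limma adjusted p = 0.366, 95% interval −0.66 to 2.50). The calls of n-Ty1 and n-Ty4 were each lost without WT1, WT2, KO1 or KO3, while n-Ty7 was called in 2 of 14 alternatives. The other 7 Tyr loci had log2 fold changes of 1.15 to 2.25 and none passed.

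The Leu CAA family held the most abundant member, n-Tl10, and n-Tl11, which has a nearly identical spliced sequence and showed the second largest change of all members. n-Tl10 scored 62.4, 84.1 and 223 in wild-type and 186, 124 and 561 in knockout libraries. WT3 lay above KO1 and KO2, and the log2 fold change of 1.14 (SE 0.67) did not pass (adjusted p = 0.181, 95% interval −0.17 to 2.46). n-Tl11 scored 1.77, 4.77 and 10.9 in wild-type and 66.3, 34.7 and 198 in knockout libraries. Even the highest wild-type library lay below the lowest knockout library, the ratio of means was 17.1, and the log2 fold change was 3.76 (SE 0.99, adjusted p = 0.00244). That call was lost without WT1 (log2 fold change 3.24) and held in the other 13 of 14 alternatives. The remaining loci, n-Tl9 and n-Tl12, had log2 fold changes of 1.76 and 1.64 and did not pass; n-Tl9 was called in 4 and n-Tl12 in 2 of 14 alternatives.

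The Ile TAT family, which decodes the codon AUA, had the highest median change of the 4 families, 2.58 (no test between families was made). Of its 4 loci 3 were called, beside 24.6% of all loci tested. n-Ti16, the most abundant Ile member, scored 10.1, 30.6 and 83.6 in wild-type and 65.3, 143 and 316 in knockout libraries. KO1 lay below WT3, so the groups overlapped, while the log2 fold change of 2.22 (SE 0.82) passed the test (adjusted p = 0.0336), a call that was lost without WT1, WT2, KO2 or KO3 (1.48 to 2.24). n-Ti15 had the largest change of all members, from 0.66, 0.76 and 8.06 to 54.7, 42.6 and 159. WT1 and WT2 held 1 read or less at this locus and WT3 8.3 reads, and all knockout libraries were several-fold above WT3. The log2 fold change was 4.61 (SE 1.01, adjusted p = 0.000302), and the locus was called in 14 of 14 alternatives, with 4.05 to 5.42 without single libraries. n-Ti17, whose spliced sequence is the same, changed least in the family, from 13.9, 26.3 and 58.7 to 62.2, 100.1 and 219. Its groups did not overlap by a narrow margin between WT3 and KO1, and the log2 fold change of 1.95 (SE 0.85) did not pass (adjusted p = 0.0749), while it was called in 3 of 14 alternatives.

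n-Ti14 lies within Mir1983 on the same strand, so that reads of the tRNA gene and of the annotated microRNA gene cannot be told apart by position. It scored 2.69, 1.14 and 7.58 in wild-type and 16.4, 22.4 and 73.2 in knockout libraries. The groups did not overlap, and the log2 fold change was 2.93 (SE 1.01, adjusted p = 0.0234), with the call lost without WT1, WT2, KO2 or KO3 (2.31 to 3.14). In the gene table, Mir1983 had 0, 0 and 1 counts in wild-type and 22, 14 and 64 in knockout libraries, and here too KO3 was highest. The edgeR quasi-likelihood test did not call Mir1983 over all genes (unadjusted p = 0.000577, adjusted p = 0.9995). The mature microRNA in RefSeq's GRCm38.p6 table, shown because it spans the tRNA's 3′ end, has its seed (bases 2 to 8) in capitals.
mmu-miR-1983: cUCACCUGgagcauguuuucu
Its 21 bases are the last 13 of the n-Ti14 gene and the first 8 of the trailer, and the sequence was found at none of the other 432 tRNA loci with their flanks. The intron of n-Ti14 is not part of it.

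In the Arg TCT family, which decodes AGA, all 4 loci had no overlap between genotypes and 2 were called, beside 39.5% and 24.6% of all loci tested. The families were not tested against each other. n-Tr22, the most abundant Arg member, scored 46.9, 26.9 and 55.7 in wild-type and 134, 119 and 224 in knockout libraries. The lowest knockout library exceeded the highest wild-type library by more than the wild-type range, yet the log2 fold change of 1.86 (SE 0.79), the smallest in the family, did not pass (adjusted p = 0.0669). n-Tr23 had the largest change, from 0.20, 0.55 and 7.24 to 15.8, 19.1 and 56.0. WT1 and WT2 held under 1 read there, and the log2 fold change was 3.43 (SE 1.01, adjusted p = 0.00684). n-Tr25 (2.58, adjusted p = 0.0380) was called, and n-Tr21 (2.24, adjusted p = 0.0827) was not. The call of n-Tr23 was lost without WT1, WT2 or KO2 (2.91 to 3.64) and that of n-Tr25 without WT1, WT2, KO1 or KO3 (2.33 to 2.67). In the 14 alternatives n-Tr22 was called 3 times and n-Tr21 once, with the replicate block.

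The single Ser AGA and Met CAT loci gave almost no tags. n-Ts11 (chr5:144108745-144108871) and n-Tm18 each had a precursor score of 0 in WT1, WT2, WT3, KO1 and KO2 and of 0.93, or 1 read, in KO3. A count of 0 allows up to 3 reads, a score of 2.29 to 5.07 depending on the library, and no fold is given. Both lacked the B box letters and the T run, as described with the sequences. Of the unflagged loci that share an anticodon with a family, n-Ti13 (TAT) had a precursor score of 0 in all 6 libraries and n-Tr20 (TCT) had 3.38 in KO2, 0.93 in KO3 and 0 elsewhere, so nearly all TAT and TCT precursor tags came from loci with an intron.

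Within a family the make-up of the precursor pool can be read without any scaling between libraries. Most members' precursor scores hold fractions of tags, so tags divided between loci may enter these shares. Of the Ile TAT precursor score, n-Ti15 gave 2.41%, 1.29% and 5.10% in the wild-type libraries, as against 27.6%, 13.8% and 20.7% in the knockout libraries. n-Ti17 gave 50.7%, 44.8% and 37.1% in wild-type and 31.3%, 32.5% and 28.6% in knockout libraries. The genotypes did not overlap at either locus, in opposite directions. In the Leu family the share of n-Tl11 was 1.22%, 2.31% and 2.37% in wild-type and 10.5%, 9.34% and 11.3% in knockout libraries, and that of n-Tl10 was 40.8% to 48.4% and 29.5% to 33.2%. n-Ty4 (0.38% to 1.75% in wild-type, 2.54% to 6.49% in knockout libraries) also took a larger share without overlap. n-Ty9 (25.7% to 37.3% and 13.2% to 23.9%) and n-Tr22 (58.2% to 82.8% and 51.99% to 58.1%) took a smaller one. In all, 3 of 22 members had a larger share without overlap, beside 18.8% of the 271 loci with a family of at least 2, and 4 of 22 had a smaller share, beside 11.8%.

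Ratios between members of a family were also taken within each library. n-Ti15 stood at 4.76%, 2.89% and 13.7% of the n-Ti17 score in wild-type and at 88.0%, 42.6% and 72.3% in knockout libraries. n-Tl11 stood at 2.84%, 5.67% and 4.90% of n-Tl10 and then at 35.7%, 28.1% and 35.3%. n-Tr23 stood at 0.43%, 2.05% and 13.01% of n-Tr22 and at 11.8%, 16.05% and 25.01%, where WT3 lay above KO1, so that the genotypes overlapped for this pair but not for the other pairs. These pairs were picked after their values were seen and carry no test.

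**Figure D4:**
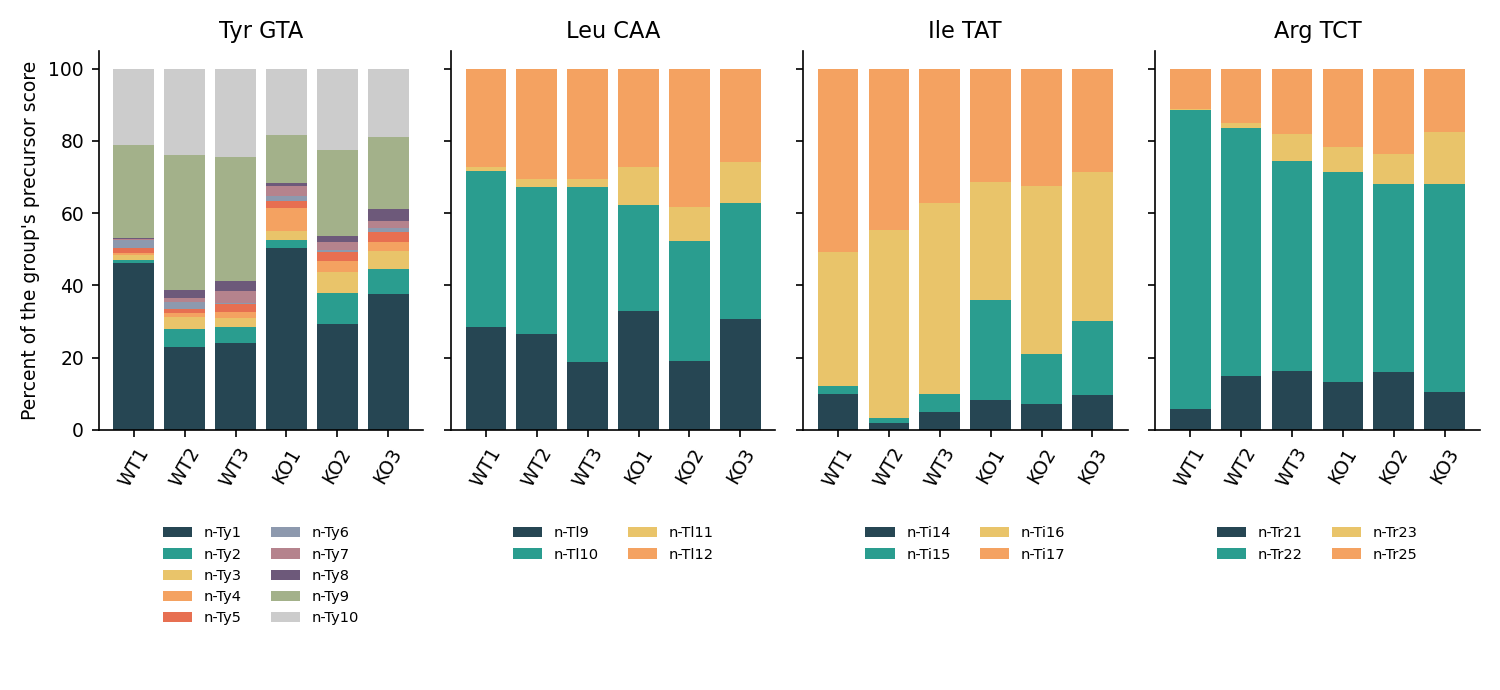
Share of each locus in the precursor score of its family, in percent, stacked for each of the 6 libraries in the 4 families with more than 1 member. The segments of n-Tl11 (1.22% to 2.37% in wild-type) and n-Ti15 (1.29% to 5.10%) widen in every Maf1-/- library, to 9.34% or more and 13.8% or more.

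Mature tags of the same loci were few. The summed mature score of the 24 members was 9.22 (WT1), 13.02 (WT2) and 76.1 (WT3), and in the knockout 49.1 (KO1), 44.6 (KO2) and 120.5 (KO3), from about 9 to 129 reads. WT3 lay above KO1 and KO2, so the genotypes overlapped. Members held 0.20%, 0.22% and 0.34% of the mature score of all loci in wild-type and 0.54%, 0.46% and 0.54% in knockout libraries, a small share in which every knockout library lay above every wild-type library. For Tyr, whose 10 loci are all members, the mature score summed to 0.50 to 7.64 in wild-type and 4.02 to 12.6 in knockout libraries. Averaged over the libraries, Tyr ranked 5 of 24 isotype classes from the highest by precursor score and 3 of 24 from the lowest by mature score. The classes below it in mature score, SeC and Sup, have 1 locus each. Since it is not known how intron and splice-junction tags were treated, these ranks do not compare transcript abundance between isotypes. n-Ty6, n-Ts11 and n-Tm18 had a mature score of 0 in all libraries.

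The precursor score made up 97.2%, 97.1% and 93.3% of precursor plus mature score at the members in wild-type and 96.7%, 96.7% and 97.1% in knockout libraries. The genotypes overlapped. At the unflagged loci the same share was 24.1%, 24.99% and 12.3% in wild-type and 41.3%, 31.5% and 36.2% in knockout libraries, without overlap. In this share the flagged loci stood far above the unflagged ones in each of the 6 libraries, in both genotypes. The members' share rests on about 9 to 129 mature reads per library. It also depends on how intron and splice-junction tags were treated, which is not given. Because it lay near its ceiling, it could show little rise in the knockout libraries.

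**Figure D5:**
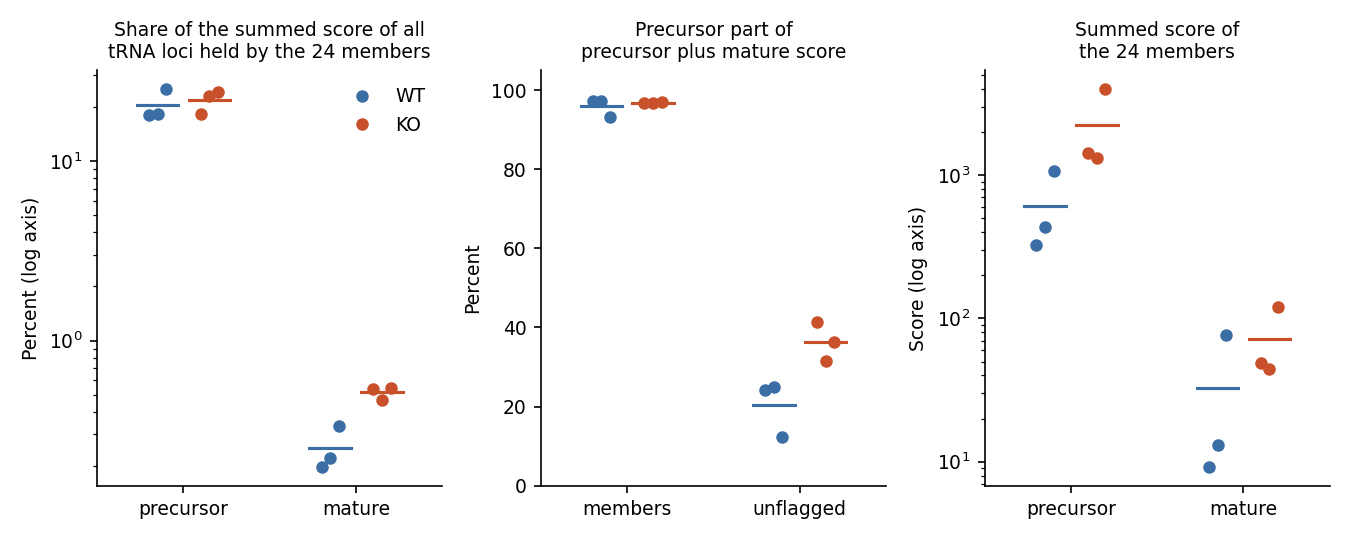
Left, percent of the summed precursor and mature score of all 433 loci held by the 24 members (log axis); middle, percent of precursor plus mature score that is precursor, for members and unflagged loci; right, summed scores of the members (log axis). Points are libraries and lines are means of 3. Members hold 18.1% to 25.1% of the precursor score but 0.20% to 0.54% of the mature score.

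No mature score of a member passed the test without the replicate block. Of the 10 members whose mean mature score reached 1, limma called 0 (0.0% of 312 loci tested were called), 1 had an unadjusted p under 0.05 beside 22 of all loci, and 2 did not overlap between genotypes, beside 13.1% of loci. With the replicate number as a block, 153 of the 312 loci were called, 4 of them members (n-Tl9, n-Tl11, n-Ti16 and n-Tr22). The median log2 fold change was 0.90, beside 1.07 over all loci. The largest was that of n-Ti16, which scored 0, 0.38 and 0.48 in wild-type as against 3.48, 3.38 and 15.4 in knockout libraries. Its groups did not overlap, and the log2 fold change of 2.43 did not pass (adjusted p = 0.635). The change of n-Tl10 was 0.60, from 5.22, 4.56 and 13.5 to 23.3, 2.52 and 19.5, and KO2 was the lowest of the 6 libraries.

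Whether the precursor changed more than the mature form was tested per locus as a difference of the log2 changes. Of 10 members at which both mean scores reached 1, limma called 0, where 1.94% of 258 loci were called higher. At an unadjusted p under 0.05 were 2 of the 10 members, beside 39 of the 258 loci (15.1%). The median difference was 0.82, beside 0.47 over all loci tested. n-Tl11 (2.38, SE 0.83, adjusted p = 0.120) and n-Tr21 (2.25, SE 0.82, adjusted p = 0.141) had the largest differences. n-Ti16 was at −0.21 (SE 0.80, adjusted p = 0.947), with a 95% interval of −1.86 to 1.44. Of the 8 members with a called precursor, n-Tl11 and n-Ti16 had this test, and the other 6 had too low a mature score for it. With a pseudocount of 5 in place of 1, n-Tl11 and n-Tr21 were called.

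By position, 12 members lie on chromosome 13 between 21264706 and 23559034, in a stretch with 71 unflagged tRNA loci. The 5 members with the largest log2 fold changes, n-Ti15, n-Tl11, n-Tr23, n-Ti14 and n-Ty4, were all among these 12. Called were 5 of these 12 and 3 of the 10 members tested elsewhere, and the medians were 2.13 and 2.02. Of the 57 unflagged loci tested in the stretch, 17 were called, with a median of 1.80. n-Ti14, n-Tl11 and n-Tr23, of 3 different families, lie within 20310 bases of each other together with 3 unflagged loci. Some other members also lie within annotated genes of mm9. n-Tr22 lies in an intron of the lincRNA gene Gm17494, n-Tm18 in an intron of Mypn and n-Ty6 in an intron of C230035I16Rik, all on the same strand. n-Tr25 lies antisense in the untranslated part of an exon of Hes7.

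The genes that carry out tRNA splicing were measured in the gene table of the same libraries. Of 14 listed, 13 were in the table and tested, and edgeR's quasi-likelihood test called 0 in either direction, where 0.0% of 16101 genes were called. The whole table held 302 genes with an unadjusted p under 0.05 and the list none, and DESeq2 called 8 genes higher and 6 lower, again none of the list. Since the quasi-likelihood test did not call Maf1 either, these counts do not show that the listed genes were alike in the genotypes. The median log2 fold change of the list was 0.20, with 10 of 13 above 0, beside 0.0078 over all genes. Rtraf, a subunit of the tRNA ligase complex, was at 53.2, 63.2 and 53.3 CPM in wild-type and 74.6, 144 and 66.9 CPM in knockout libraries. Its groups did not overlap, and KO2 was highest, with a log2 fold change of 0.75 (SE 0.32, unadjusted p = 0.0518, adjusted p = 1.00). Tsen34, a catalytic subunit of TSEN, was at 21.9, 29.7 and 31.7 CPM and at 33.9, 53.0 and 27.3 CPM, so that KO3 lay within the wild-type range, with a log2 fold change of 0.45 (SE 0.29, adjusted p = 1.00).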

How the data were processed

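The deposited gene table holds expected count values, made by the authors with CASAVA, GSNAP and HTSeq on mm9 according to the submitters' processing notes, as whole numbers per Ensembl gene. Its authors' edgeR fold changes and p-values, the limma and GLM calls of the tRNA workbook, and 6 columns of normalized counts were not used. The precursor and mature score values of tRNA loci were deposited by the authors, with the tag assignment not given in the sources used here. A score of 1 read equalled the mean of the uniquely mapped reads divided by those of the library. Of the members' precursor scores above 0, 7.46% were whole reads within 0.02, so most hold fractions of tags. The p-values set each genotype difference against the spread between mice, with information on that spread shared across the loci or genes tested.

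Scores were tested with limma 3.58.1 (trend, log2(score + 1), mean of at least 1, Benjamini-Hochberg over all loci tested, threshold 0.05), and counts with edgeR 4.0.16 (filterByExpr, TMM), with DESeq2 1.42.0 as an alternative, in R 4.3.3. The tests were tested on simulated data. Sequences came from the mm9 genome, genes from GENCODE and the microRNA from RefSeq; tables and plots used Python 3.11.15, pandas 2.3.3, numpy 2.4.6 and matplotlib 3.10.9. A count of 0 was taken to allow 3 reads, for counting error only. In the gene table same-numbered libraries had residual correlations of 0.66, 0.36 and 0.34. However, WT2 with KO3 (0.47) and WT3 with KO2 (0.29) were also positive, so the numbers do not pair the libraries cleanly. The labels do not say what the number marks, and the replicate block changed no gene call there.

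The members and the splicing and marker lists were chosen with earlier results of these data known. All 24 members are accounted for; values per library are given for n-Ti16, n-Ti14, n-Ts11, n-Tm18 and, in each family, for the loci with the highest precursor score and the largest and smallest change. Rtraf and Tsen34 are the listed genes with the smallest p. Alternatives were other pseudocounts (0.1 and 5), filters and scalings, a replicate block, and the omission of single libraries. One listed splicing gene was not matched in the table. The sequence of n-Ty1 is not reported here.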

Additional observations from a re-analysis of the deposited data

How the results depend on the processing

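Limits come first from few mice and few reads. Without 1 library, 14 to 86 loci and 1 to 11 members were called higher in precursor score. For a larger precursor than mature change, 0 to 7 loci were called. The ratio of the members' summed score was 2.26 to 5.88, and no locus was called in mature scores. Without a filter on low scores, 32 loci and 5 members were called by precursor and 0 by the difference. With scores scaled by TMM factors, 21 loci (2 members) were called higher and 4 lower by precursor, and 2 higher by mature score; the log2 fold changes turned to −0.89 (n-Ty9), −0.69 (n-Tl10), −0.33 (n-Ty10), −0.32 (n-Ty6), −0.18 (n-Tl12) and −0.063 (n-Tl9). Scaled to the summed mature score, 2 loci were called by mature score. The difference gave 0 loci at a pseudocount of 0.1, 13 (2 members) at 5 and 13 at a mean of at least 5. DESeq2 called 8 genes higher and 6 lower in place of 0. With the replicate block, 104 loci (20 members) were called by precursor, 153 (4 members) by mature score and 14 by the difference; with the block and the summed mature scaling, 68 (2 members) by mature score. Same-numbered libraries had residual correlations of 0.27, −0.07 and 0.23 in precursor and 0.35, 0.12 and 0.09 in mature scores, so the numbers do not pair them by this measure; WT2 correlated best with KO3. The causes were not tested. Of the 14 alternatives, only TMM scaling turned the sign of a member's precursor change.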
